A study of Mus musculus with 4 samples.

Results

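The E2F transcription factors E2f1 to E2f8 and their dimerisation partners Tfdp1 and Tfdp2 (DP1 and DP2) were examined for IgD peaks. These 10 genes were listed by name and make up 10 of the 21774 protein-coding genes placed on the assembled mouse chromosomes. For each gene, every deposited peak in the gene body or up to 50000 bp on either side was taken, which gave 21 peaks. The data are from chromatin immunoprecipitation followed by sequencing (ChIP-seq) on pro-B cells, an early B-lineage stage of the bone marrow, sorted as B220 positive, CD43 positive and IgM negative cells of WT mice. All 4 libraries share this genotype and cell type: 2 were precipitated with anti-ms IgD and 2 with ms IgG, the isotype control. No treatment, time or age is given in the labels, nor whether libraries came from separate mice. Peak lists hold no expression, so the cell type could not be checked against its markers.

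E2Fs bind DNA as dimers with a DP protein and switch on genes of S phase entry when cyclin-dependent kinases release them from the retinoblastoma family of pocket proteins. E2F1, E2F2 and E2F3 are known as activators and E2F4 and E2F5 as repressors that work with pocket proteins. E2F6 represses with Polycomb group proteins, and the atypical E2F7 and E2F8 repress without a DP partner. Large pre-B and pro-B cells divide fast, and the series title links nuclear IgD in pro-B cells to E2F3.

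Each list sets 1 IgD library against the IgG library that carries its number; they are called pair 1 and pair 2 below. Pair 1 held 11375 peaks and pair 2 held 40628. The fold of a peak is the authors' ratio of IgD fragments to local background at the summit, and the -log10 q is their significance value. Total reads of the libraries were not analysed here. Fragments at a summit were worked out from its fold and its p, a step that holds only if the IgD library was not scaled. Intervals on folds are 95% exact Poisson intervals of those fragments and cover counting error only. At the commonest background level, 2.76 fragments in pair 1 and 2.70 in pair 2, the weakest listed summit held 9 and 8 fragments. Anything weaker would not appear in these lists.

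Every E2F and DP gene had a pair 2 peak in its window, and only E2f1 had one in pair 1. The 10 of 10 in pair 2 stand beside 81.5% of all protein-coding genes counted the same way, and the 1 of 10 in pair 1 beside 15.9%. The windows covered 1.39 Mb and held 20 pair 2 peaks, or 14.4 per Mb, against 15.2 per Mb over the chromosomes. Pair 1 had 0.720 per Mb in these windows and 4.24 per Mb over the chromosomes. At this window size the family's pair 2 count and density were thus close to the background. With 1 list per pair there is no spread between samples, and no test was made. No member had a pair 1 peak overlapping a pair 2 peak, a condition that 3.21% of protein-coding genes met.

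**Figure D1:**
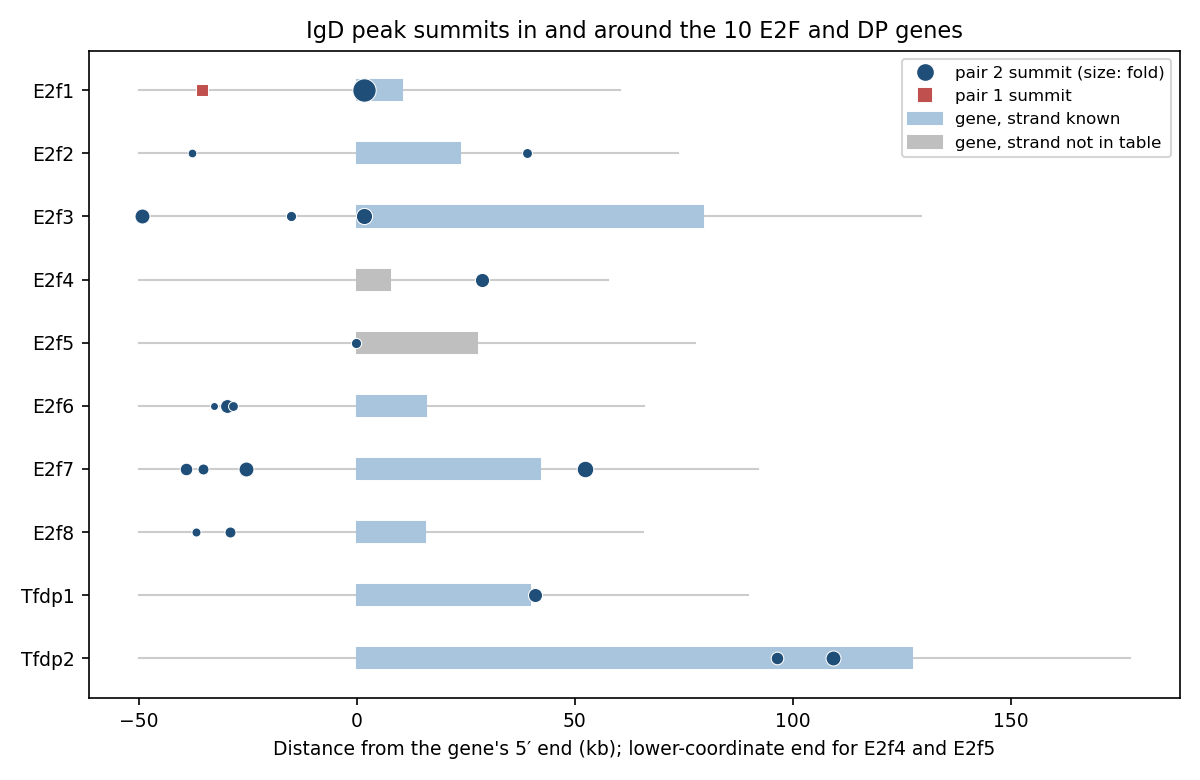
Summits in the gene body and 50 kb around it for the 10 genes, by distance in kb from the 5′ end of the gene (lower-coordinate end for E2f4 and E2f5, whose strand is not in the table used). Blue circles are the 20 pair 2 summits, sized by fold, the red square is the 1 pair 1 summit, and bars are genes. Summits lie within 3000 bp of a start of E2f1 and E2f3, at the lower-coordinate end of E2f5 and within Tfdp2, and elsewhere outside the genes.

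Most of these peaks lay outside the genes. In pair 2, 16 of 20 summits were outside a member and 4 inside, in E2f1, E2f3 and Tfdp2. That is 3 of 10 members with a summit inside in pair 2, beside 31.9% of protein-coding genes. In pair 1 it was 0 of 10, beside 5.33%. The 20 pair 2 peaks were 493 to 1347 bp wide with a median of 742 bp, against 774 bp for all peaks of that list. Their folds ran from 2.74 to 8.03 with a median of 4.33, against 3.78 for all. A -log10 q of at least 5 was reached by 11 of the 20 (55.0%), against 38.8% of all pair 2 peaks.

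Among the activators, E2f3 carried its peak at an annotated start inside the gene. E2f3 lies on the minus strand of chromosome 13, from 29906575 to 29986064, and RefSeq's promoter table gives it 2 starts, an outer one at 29986063 and an inner one at 29984391. E2F3 is known in a long form, E2F3a, and a short form, E2F3b, made from separate promoters, but the table does not name the form that belongs to each start. The pair 2 peak, chr13:29984222-29984747, was 526 bp wide and reached from -356 to 169 bp relative to the inner start. Its summit at 29984427 was 36 bp upstream of the inner start and 1637 bp downstream of the gene's 5′ end. The outer start was not covered by a peak in either list. The summit solved to 34 fragments over a background of 5.29, a fold of 5.57 (3.90 to 7.72) with a -log10 q of 14.1.

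The 250 bases before each of the E2f3 starts are shown because the peak covered one and not the other. The E2f7 start and the first of the Tfdp1 starts are added as GC-rich starts of the family without a peak. Both hold an E2F word, defined below, and other GC-rich starts without a peak are not shown. All are from RefSeq on GRCm38.p6, the assembly that mm10 names, read 5′ to 3′ on the strand of the gene and ending at the base before the start. Capitals mark matches, on either strand, to an E2F word (TTTCCCGC, TTTCGCGC, TTTGCCGC or TTTGGCGC), a GC box (GGGCGG) or a CCAAT box (CCAAT). The reverse complements of the GC box and CCAAT box read CCGCCC and ATTGG, and matches of one kind may overlap.
E2f3 inner start, chr13:29984392-29984641, minus strand: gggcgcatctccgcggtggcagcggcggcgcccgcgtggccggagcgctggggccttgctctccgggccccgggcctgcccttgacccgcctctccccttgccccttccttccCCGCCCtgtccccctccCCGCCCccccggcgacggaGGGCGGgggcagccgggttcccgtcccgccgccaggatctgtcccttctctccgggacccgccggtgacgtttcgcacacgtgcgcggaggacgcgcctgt
E2f3 outer start, chr13:29986064-29986313, minus strand: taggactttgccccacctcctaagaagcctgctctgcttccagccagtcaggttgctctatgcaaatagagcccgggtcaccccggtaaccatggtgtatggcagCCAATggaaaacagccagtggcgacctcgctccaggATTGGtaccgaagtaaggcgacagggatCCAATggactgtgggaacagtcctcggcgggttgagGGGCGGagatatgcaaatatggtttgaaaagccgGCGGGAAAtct
E2f7, chr10:110745189-110745438, plus strand: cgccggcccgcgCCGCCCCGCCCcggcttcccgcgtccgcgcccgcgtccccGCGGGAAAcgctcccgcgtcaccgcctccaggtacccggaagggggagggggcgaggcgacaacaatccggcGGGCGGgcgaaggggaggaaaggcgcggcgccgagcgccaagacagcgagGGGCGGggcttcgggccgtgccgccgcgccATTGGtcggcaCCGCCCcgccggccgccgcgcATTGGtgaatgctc
Tfdp1, chr8:13338501-13338750, plus strand: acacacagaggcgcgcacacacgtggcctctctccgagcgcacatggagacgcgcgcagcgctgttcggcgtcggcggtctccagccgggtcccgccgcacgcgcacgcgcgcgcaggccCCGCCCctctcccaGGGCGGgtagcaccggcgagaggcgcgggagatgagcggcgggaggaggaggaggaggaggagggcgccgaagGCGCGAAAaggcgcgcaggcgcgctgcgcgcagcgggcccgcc

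The E2f3 starts differ in these letters. The inner one had 3 GC boxes and 0 E2F words, and the summit fell at base 215 of its sequence. The outer one had 1 E2F word, at bases 240 to 247, 1 GC box and 3 CCAAT boxes. Over the 300 bases of the RefSeq window, which run 50 bases past the start, the inner window was 78.7% G and C, more than 97.9% of the 21263 windows of protein-coding genes, and the outer one 55.3%. An E2F word occurred in 2.85% of all those windows, a GC box in 46.2% and a CCAAT box in 38.2%. Among the 12 windows of 8 members that RefSeq's table holds, 5 had an E2F word (in E2f2, E2f3, Tfdp1 and E2f7), and both Tfdp1 windows share the same one. The windows of E2f1 (77.3% G and C), E2f6 (68.0%) and E2f8 (66.7%), not shown above, also held no summit and had 0 E2F words. Among the sequences shown, the one under a peak had 0 E2F words and each of the others had 1. So few windows cannot tell whether E2F words go with a peak. Of all protein-coding windows with a pair 2 summit, 7 (4.14%) had an E2F word, beside the 2.85% above, and this difference was not tested. A match is a string of letters and not evidence of binding.

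A summit inside a promoter window was uncommon. In pair 2, 0.795% of the 21263 windows held one, and the inner window of E2f3 was the only member window among the 12 that did. In pair 1 the share was 0.183% and no member window held a summit. With the windows ranked by G and C in 4 groups, the pair 2 share went from 0.566% in the lowest group to 1.04% in the highest. The pair 1 share did not rise in this way, with 0.328% (18 windows) in the lowest group and 0.173% (9 windows) in the highest. The inner E2f3 window belongs to the highest group. Of the member windows, 7 from 6 genes were in that highest group, and 1 of the 7 held a summit. The part of base composition in the E2f3 peak was not tested.

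Around E2f3, pair 2 had further peaks upstream of the gene. A peak 15.0 kb upstream had 12 fragments over the common background, with a fold of 3.51 (1.95 to 5.94). The other, 49.2 kb upstream, had 22 fragments and a fold of 5.14 (3.31 to 7.67), close to that of the peak at the inner start. Their -log10 q values were 3.39 and 8.86, both below the 14.1 at the start. The pair 2 peak just inside the 50000 bp limit was this one at E2f3, at 48.9 kb from its near edge, and the first pair 2 peak outside it was also at E2f3, at 51.0 kb with a fold of 3.54.

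E2f1, an activator also known for its part in apoptosis, had the strongest peak of the family. It lies on the minus strand of chromosome 2, from 154559400 to 154569892. The pair 2 peak, from 154568028 to 154568540, was 513 bp wide with its summit inside the gene, 1599 bp downstream of the 5′ end and 1133 bp downstream of the start in the promoter table. Its fold was 8.03 (5.63 to 11.1) and its -log10 q 20.1. This is the gene with the single pair 1 peak as well, but that one lay 35.4 kb upstream of E2f1, 1.58 kb from the start of Pxmp4, a gene for a peroxisomal membrane protein. It was 612 bp wide, with 11 fragments, a fold of 3.20 (1.73 to 5.51) and a -log10 q of 2.41.

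The remaining activator, E2f2, had no peak near its starts. Its pair 2 peaks lay 37.7 kb upstream of the gene, with a fold of 3.01 (1.89 to 4.57), and 15.2 kb beyond its 3′ end, with a fold of 3.41 (1.93 to 5.66). Both were nearer to the start of another gene than to one of E2f2: the first was 9.28 kb from Id3, which encodes an inhibitor of E proteins in lymphocytes, and the second 4.92 kb from Asap3. The upstream one had the highest background of any peak in these windows, 5.98 fragments, over which 20 fragments gave its low fold. The activators therefore ranged from the highest fold in the family to folds below the pair 2 median.

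**Figure D2:**
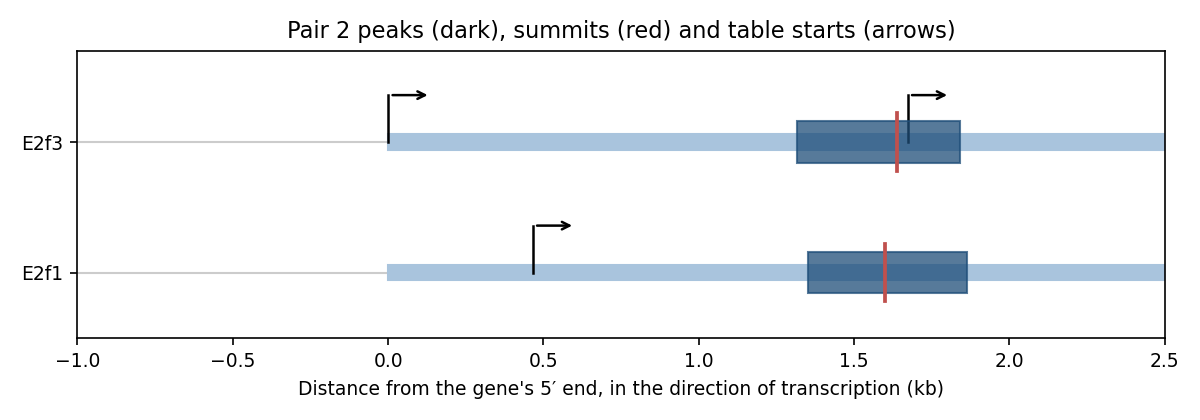
Pair 2 peaks at the 5′ ends of E2f3 and E2f1, by distance in kb from the gene's 5′ end in the direction of transcription. Dark boxes are peaks, red lines their summits, arrows the starts in the promoter table and light bars the genes; the E2f3 summit is 36 bp upstream of its inner start, and the E2f1 summit 1133 bp downstream of its table start.

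The E2f1 and E2f3 peaks resembled each other in distance from the 5′ end of the gene and in fragments. Relative to the nearest start they differed, with the E2f3 summit 36 bp upstream and the E2f1 summit 1133 bp downstream. The E2f3 peak covered its start and the E2f1 peak did not. The summits lay 1599 and 1637 bp inside the 5′ end, the widths were 513 and 526 bp, and both summits solved to 34 fragments, the most in these windows. Their folds differ in the background, which was 3.36 fragments at E2f1 and 5.29 at E2f3. The latter is 1.96 times the common level of pair 2, and 3.50% of all pair 2 peaks had a background at least as high. The intervals of the folds overlap, and the difference was not tested.

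E2f4 and E2f5, the repressors that act with pocket proteins, have no entry in the promoter table, so their starts were not assigned. E2f5 (chromosome 3, 14578602 to 14606309) had 1 pair 2 peak, 809 bp wide, which overlapped its lower-coordinate end with the summit 230 bp outside the gene. It had 12 fragments, a fold of 3.51 (1.95 to 5.94) and a -log10 q of 3.39, the same values as the peak 15.0 kb upstream of E2f3, since equal fragments over the common background give equal folds. E2f4 (chromosome 8, 105297663 to 105305370) had its only peak 21.1 kb beyond its higher-coordinate end. At 1347 bp it was the widest of these peaks, with a fold of 4.87 (2.95 to 7.63). The nearest start in the table was that of Fhod1, a formin gene, at 21.5 kb.

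E2f6, the Polycomb-linked repressor, had 3 pair 2 peaks and all of them lay upstream, with summits 28.3 to 32.8 kb from its 5′ end and within 4441 bp of each other. The middle one had a fold of 4.76 (2.93 to 7.38), and the outer ones 2.74 and 3.38. For each of these the nearest coding start was that of Greb1, an oestrogen-responsive gene, 18.3 to 20.9 kb away. The weakest of them had the lowest -log10 q of any peak in these windows.

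The atypical repressors E2f7 and E2f8 had no summit in the gene. E2f7 had 4 pair 2 peaks, the most of any member. Of these, 3 lay 25.3 to 39.2 kb upstream with folds of 3.78 to 5.14, and the last one lay 10.4 kb beyond the 3′ end with a fold of 5.68 (3.57 to 8.62) and a -log10 q of 9.15. That fold is slightly above that of the E2f3 start peak, from 20 fragments over the common background. E2f8 had peaks 29.1 kb and 36.7 kb upstream with folds of 3.78 (2.14 to 6.28) and 3.12 (1.69 to 5.38).

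Of the DP partners, Tfdp1 had its peak at the far end from its promoter. Tfdp1 lies on the plus strand of chromosome 8, from 13338725 to 13378448, and its only pair 2 summit was 1252 bp beyond the 3′ end, about the gene's length from any of its starts. The fold was 4.83 (2.96 to 7.48) and the -log10 q 6.997. The closest coding start listed was that of Grk1, the rhodopsin kinase gene, 25.4 kb away. Tfdp2, the longest member at 127401 bp, had both its summits inside the gene, 33.5 kb and 46.3 kb downstream of the nearest annotated start. Their folds were 4.33 (2.54 to 6.96) and 5.14 (3.15 to 7.96), from 15 and 18 fragments over the common background. Neither partner had a peak within 3000 bp of a start.

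**Figure D3:**
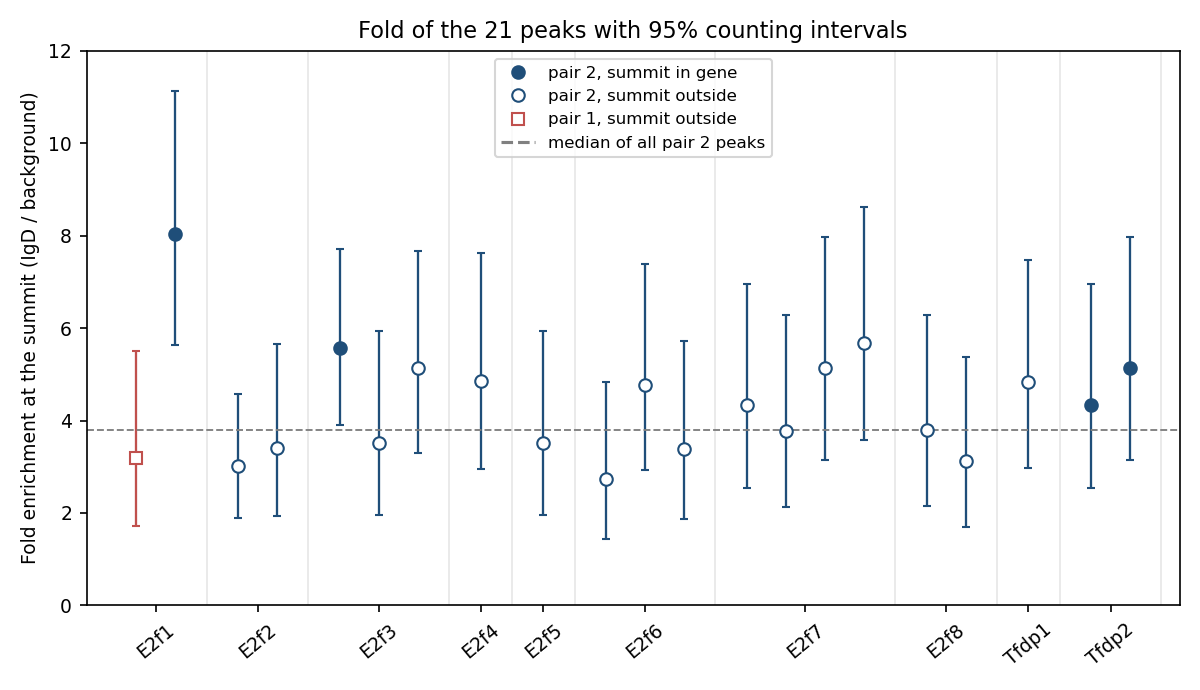
Fold enrichment at the summit (vertical axis, ratio of IgD to background) of the 21 peaks, grouped by gene, with 95% counting intervals. Filled symbols have the summit inside the gene, the red square is pair 1, and the dashed line is the median of all pair 2 peaks (3.78); the E2f1 interval (5.63 to 11.1) and the E2f3 interval at the start (3.90 to 7.72) lie above that line.

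Counted at starts, E2f1 and E2f3 were the members with a pair 2 summit within 3000 bp. They are 2 of the 8 members with an annotated start, 25%, beside 11.5% of the 17492 protein-coding genes with one. In pair 1 it was 0 of 8, beside 2.13%. Taking either end of a gene in place of its start, which needs no strand, gave 4 of 10 in pair 2, beside 16.8%. The others are Tfdp1, at its 3′ end, and E2f5. A count of 2 among 8 genes is too small to set the family apart.

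Within the 2003 genes with such a summit in pair 2, the fold of E2f1 was exceeded by 34 genes (1.697%) and that of E2f3 by 267 (13.3%). By -log10 q, 24 genes (1.198%) were above E2f1 and 78 (3.89%) above E2f3. E2f3 thus stood higher by q than by fold. In place, E2f3 was among the closest: 45 of the 2003 genes (2.25%), E2f3 included, had their strongest summit within 36 bp of a start. E2f1 was not: 974 genes (48.6%), E2f1 included, had theirs within 1133 bp, and the median distance was 1180 bp.

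**Figure D4:**
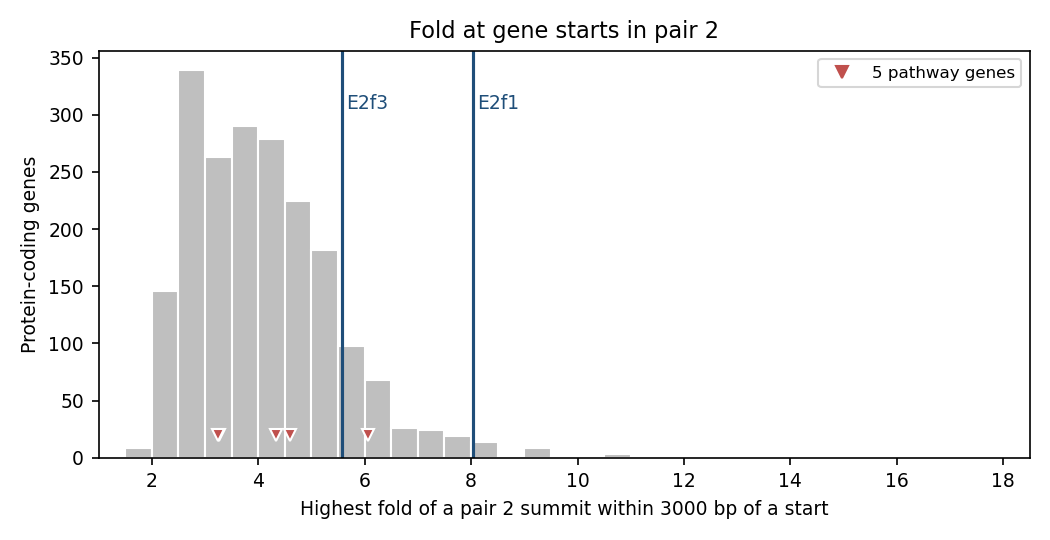
Number of protein-coding genes (vertical axis) by the highest fold of a pair 2 summit within 3000 bp of a start (horizontal axis, bins of 0.5), over 2003 genes. Blue lines mark E2f3 (5.57) and E2f1 (8.03), and red triangles the 5 genes of the E2F pathway list with such a summit, from 3.24 to 6.06.

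The genes nearest to E2f3 in fold, with a pair 2 summit by a start and no pair 1 peak within 50000 bp, were Abcb9, Gstm5, Selenom, Siva1 and Exoc1, out of 1543 such genes. Abcb9 encodes a lysosomal peptide transporter, Gstm5 a glutathione transferase, Selenom a selenoprotein, Siva1 an apoptosis regulator and Exoc1 a subunit of the exocyst. The first 4 had a fold of 5.59 and Exoc1 5.60, each from 21 fragments, against 34 at E2f3. Their -log10 q was 9.35 to 9.37, below the 14.1 of E2f3. Likeness in this sense means equal fold only.

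In pair 1, 1 of 10 members had a peak within 50000 bp, close to the 15.9% of all protein-coding genes. Besides the one near E2f1, the closest was 77.6 kb from E2f7 (fold 3.73), and the nearest to Tfdp1 was at 162 kb with a fold of 5.06. For E2f8, Tfdp2, E2f5 and E2f4 the nearest lay 202 to 468 kb away. The distance was 621 kb for E2f3, 801 kb for E2f6 and 999 kb for E2f2, the largest. The E2f3 peak at its inner start and the E2f1 peak 1133 bp downstream of a start thus rest on 1 IgD library and 1 IgG library.

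Genes that act with the E2Fs were counted in the same way from a list of 31, all found and 24 with an annotated start. In pair 2, 25 of 31 (80.6%) had a peak within 50000 bp and 12 of 31 (38.7%) a summit inside, near the 81.5% and 31.9% of all coding genes. In pair 1, 5 of 31 (16.1%) had a peak within 50000 bp and 0 of 31 a summit inside, beside 15.9% and 5.33% of all coding genes. At starts, 5 of 24 (20.8%) had a pair 2 summit and 0 of 24 a pair 1 summit, beside the 11.5% and 2.13% above. No gene of the list had overlapping peaks of both pairs within 50000 bp, beside 3.21% of all coding genes.

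By role, the 5 genes with a pair 2 summit at a start came from each group of the list. Ccne1, which encodes cyclin E1, the kinase partner that completes the release of E2Fs, had the highest fold, 6.06 (3.94 to 8.97), 1542 bp from its start on the upstream side. Rbbp4, a histone-binding subunit of the MuvB core that pocket proteins join, had its summit 70 bp downstream of a start with a fold of 4.595 (2.74 to 7.29). Ring1, a Polycomb ubiquitin ligase found with E2F6, had one at 617 bp with a fold of 4.33 (2.54 to 6.96). Cdkn2c, an inhibitor of CDK4 and CDK6, and Mga, a DNA-binding partner of MAX in the E2F6 complex, had summits at 2888 and 2742 bp with folds of 3.27 and 3.24. Neither Rb1 nor the D-type cyclin genes were among them, but Rb1, Ccnd1 and Ccnd2 are without an annotated start in the table.

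The background behind a fold also varied among the members. Of the 20 pair 2 peaks, 10 had the common background of 2.70 fragments, within 0.01, and 10 a higher one, against 70.4% and 29.6% of all pair 2 peaks. The higher levels were at E2f1, both peaks of E2f2, the E2f3 peaks at the inner start and at 49.2 kb, all 3 of E2f6, the farther one of E2f8 and that of Tfdp1. What sets the local background, and its part in these folds, was not tested.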

How the data were processed

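The data are 2 peak lists from 2 anti-IgD and 2 mouse IgG libraries. The submitters' processing notes name HISAT2, MACS2, ChIPseeker and the build mm10, with settings not given in the sources used here. Deposited by the authors for each peak were a fold enrichment (a ratio) and -log10 values of p and q; the deposited integer score was not used.

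Fragments (k) and background (b) were solved from fold = (k + 1) / (b + 1) and the Poisson upper tail. All 11375 and 40628 peaks had a solution within 0.001 of their -log10 p. Of 300 counts simulated with the same formulas, 300 were recovered, which checks the arithmetic and not whether the IgD library was scaled. Gene positions came from RefSeq on GRCm38.p6, without 348 genes on scaffolds. Its promoter table gave strand and starts for 17492 of 21774 protein-coding genes; the 5′ gene end was added as a start. Peaks counted in a window by 1 bp.

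Members, lists and rules were chosen with earlier results of these data known. Named were all members and the coding gene with the nearest start in the table to each of their peaks. Coding genes without a start there could not be named in this way. E2f4 and E2f5 are among them, so a nearest start at their peaks leaves out their own, and none is named at E2f5. Also named were pathway genes with a summit within 3000 bp of a start, and the 5 genes closest in log2 fold to E2f3. Alternatives were stricter q or fold, narrow peaks, equal list lengths and other windows. Python 3.11.15 (numpy 2.4.6, scipy 1.17.1, pandas 2.3.3) was used.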

Additional observations from a re-analysis of the deposited data

How the results depend on the processing

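Some of the small counts changed with the threshold or the window; the share of all protein-coding genes under the same setting is given beside each. The pair 1 count of members with a peak within 50000 bp, 1 of 10, became 0 at a -log10 q of at least 5 (4.78%), 0 at a fold of at least 4 (5.89%), 0 with 20000 bp around the gene (10.7%) and 2 with 100000 bp (23.9%). The pair 2 count at starts, 2 of 8, became 1 with 1000 bp around the start (5.4%), which kept E2f3, and 4 of 10 with any annotated gene end (16.8%). It was 2 at the stricter q (5.16%), at the stricter fold (5.47%), among peaks narrower than 2000 bp (11.0%), with both lists at the length of the shorter (3.92%) and with 5000 bp (16.7%). The pair 2 count within 50000 bp was 7 of 10 at the stricter q (52.8%), at the stricter fold (55.8%), with equal list lengths (43.7%) and with 20000 bp (61.5%). It was 10 of 10 among peaks narrower than 2000 bp (80.4%), with the summit in the window (80.9%) and with 100000 bp (93.3%). The pair 1 count at starts was 0 under every alternative run, beside 0.452% to 2.88% of all protein-coding genes. The count of overlapping peaks was also 0 under each, beside 1.32% to 4.47%. At shares this low, a count of 0 among so few genes does not set the family apart. For the fold at E2f3, the highest fold within 50000 bp is that of the peak at the inner start, so that alternative gives the same 5.57 by construction. No paired analysis was possible because each list already joins the IgD and IgG library of 1 number, with no values per library. Leaving out either pair leaves the values of the other as given. At 10 to 34 fragments a summit in the member windows, folds are known only within wide counting intervals.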
